A study of Mus musculus with 9 samples.

Results

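Lung fibroblast marker genes were followed here through RNA sequencing libraries of sorted mouse lung smooth muscle cells. The members were the rows of the expression table whose symbol stood in a list of 34 marker genes, 29 of adventitial and 5 of alveolar fibroblasts. All 34 were among the 21049 genes of the table and all passed the filter on low values. Most of the members that differed were highest in the libraries of total lung smooth muscle cells, and the widest span was that of the transporter gene Abca8a, whose mean there was 35.1 times its mean in the bronchial libraries.

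Fibroblasts are the mesenchymal cells that make and remodel the collagen-rich matrix of the lung. Adventitial fibroblasts lie in the cuffs around arteries, veins and airways, next to the smooth muscle layer, and are known for Pi16, Dpp4, Ly6a and the matrix-binding proteins of loose connective tissue. Alveolar fibroblasts lie in the walls of the air sacs, express Tcf21, Npnt, Inmt and Ces1d, and support the epithelium there.

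The study set types of pulmonary smooth muscle cell beside each other, in 3 groups of 3 libraries. Libraries of total_SMC came from whole-lung smooth muscle, with venous cells among them, of mice of genotype tg-Acta2-GFP. PASMC were pulmonary arterial cells of the ASMC-effector mice, genotype Cspg4/Acta2-CreER/R26-GFP. BSMC were bronchial cells of the NVSMC-effector mice, genotype Chrm2/Acta2-CreER/R26-GFP. Every library was labelled as treated with tamoxifen, 0.75 mg per 10 g body weight over 3 days from a 20 mg/mL corn oil stock, and all cells were collected by fluorescence-activated sorting of lung tissue. Acta2, the smooth muscle actin gene named in each genotype, is also active in myofibroblasts. Population, mouse line and sort change together between the groups and cannot be told apart. The labels give no age and do not say that replicates were separate animals; the p-values then cover the library-to-library spread only, which may be technical.

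Values are normalized read counts per gene unless another scale is named, errors are SD with n = 3 per group, and log2 fold changes carry the standard error (SE) of the fit. A gene is called higher or lower at a Benjamini-Hochberg adjusted p under 0.05 in limma over 15647 genes. Depth, as reads per library implied by the spacing of the values, was 8.929 to 9.901 M reads in total_SMC, 8.917 to 10.015 M in PASMC and 6.387 to 9.331 M in BSMC. Smooth muscle myosin Myh11 averaged 10927 ± 1263 in total_SMC, 11958 ± 674 in PASMC and 10536 ± 1196 in BSMC, so the labelled cell type had its defining marker in every group. The airway muscle markers Hhip (7597 ± 193 in PASMC and 3161 ± 298 in BSMC) and Lgr6 (4528 ± 374 in PASMC and 2387 ± 267 in BSMC) were higher in the libraries labelled PASMC than in those labelled BSMC, so PASMC and BSMC stand below for the labels alone. BSMC replicate 2 stood apart from its group, with chi-square values per gene of 26.11 and 32.84 against its partners and 15.73 between those, and counts of the members, of their subsets and of further fibroblast genes are also given without it where they change.

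Of the 34 genes, 13 had every total_SMC library above every PASMC library and every PASMC library above every BSMC library: Scara5, Pi16, Clec3b, Serpinf1, Lum, Dpt, Cygb, Has2, Ebf2, Medag, Il33, Abca8a and Smoc2. Over all genes tested, 819 had that order, or 5.23%. Dpp4, Fap, Has1, Adh1 and Pcolce were called higher in total_SMC than in PASMC and than in BSMC, without a call between those. No comparison had a call for 9 genes, which were Ly6a, Gsn, Dcn, Ogn, Pcolce2, Inmt, Thy1, Sod3 and Ptx3. The remaining genes, Cd248, Tcf21, Npnt, Ces1d, Limch1, Enpp2 and Ebf1, had patterns of their own. In a bulk sample, fewer cells of a type and less RNA per cell cannot be told apart.

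**Figure D1:**
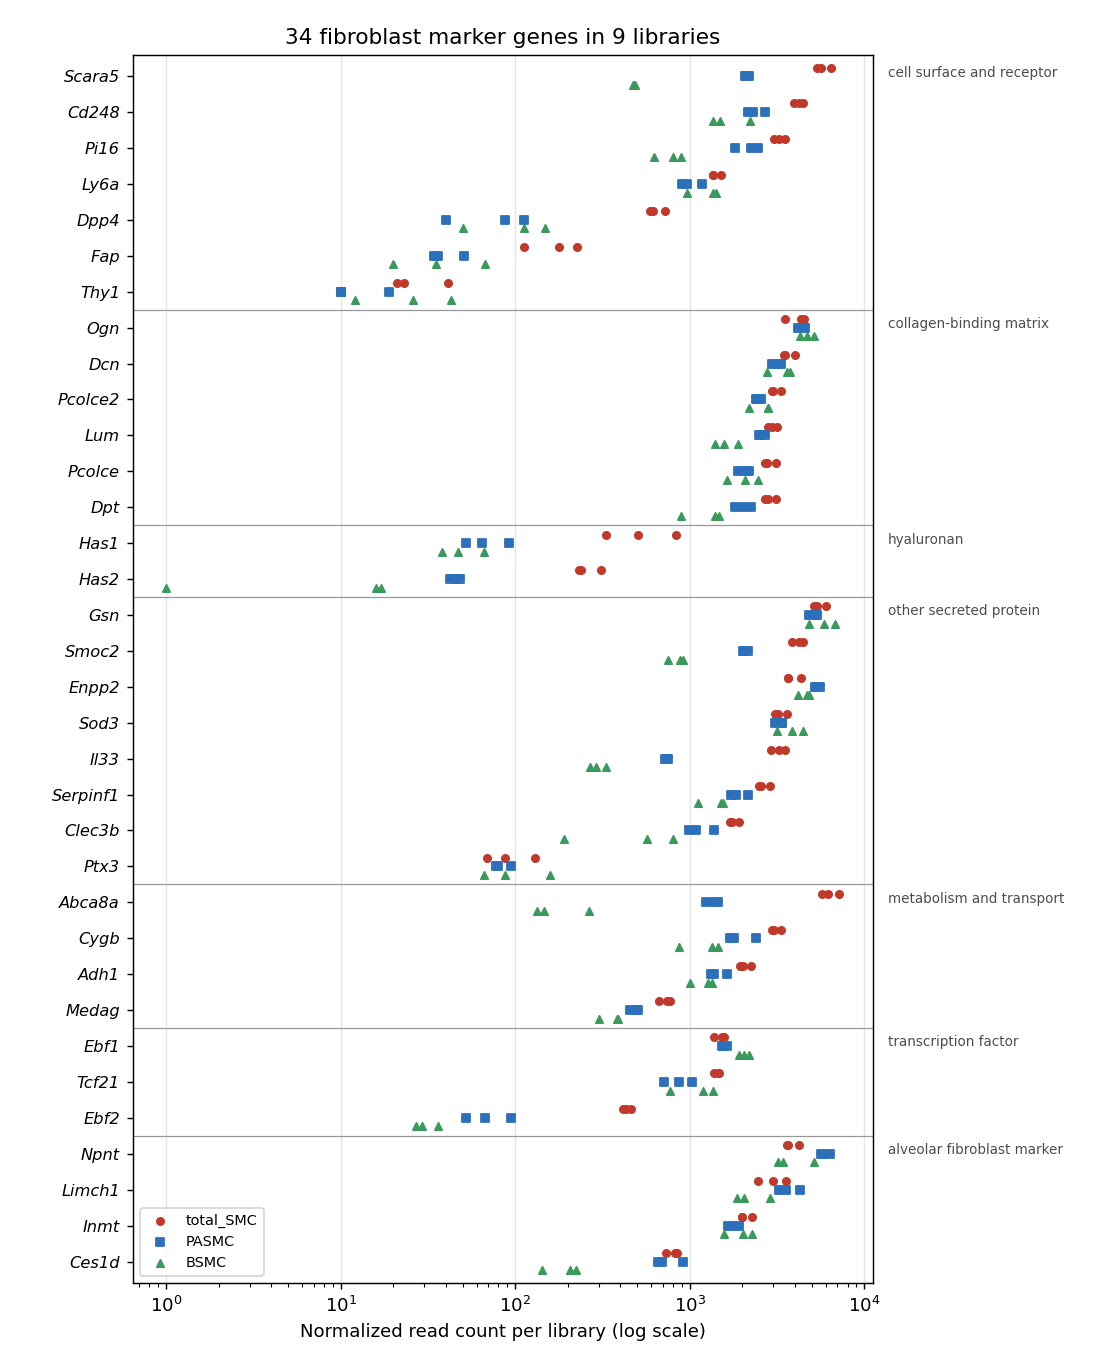
Normalized read count of each of the 34 genes (rows, grouped by role) on a log axis, 1 point per library, for total_SMC (circles), PASMC (squares) and BSMC (triangles). Scara5, Il33, Abca8a and Smoc2 separate into 3 groups of points, while the points of Gsn, Ogn and Sod3 lie together.

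In PASMC against BSMC, 16 members were higher and 1, Ebf1, was lower, so 50% of members were called, beside 22.1% of all genes. Higher calls alone made up 13.2% of all genes and lower calls 8.88%. The median log2 fold change of the members was 0.45, and that of all genes was 0.05. A fold of at least 2 was reached by 9 of the higher members, against 7.21% of all genes. The number of members called changed with single libraries left out, and so did the share of all genes. It was 8 without PASMC replicate 1 (beside 11% of all genes), 11 without PASMC replicate 2 (12.8%) and 10 without PASMC replicate 3 (17.6%). Without BSMC replicate 2 it was 20, with 15 higher and 5 lower, the added lower calls being Ly6a, Gsn, Tcf21 and Sod3, beside 41.7% of all genes called. Under other scalings the calls of Serpinf1, Cd248, Cygb and Ebf1 ended in at least 1 of them (adjusted p = 0.0607 to 0.553), and Adh1 passed on implied reads without scaling (adjusted p = 0.0314).

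In total_SMC against PASMC, 17 members were higher and 2, Npnt and Enpp2, were lower, so 55.9% of members were called, beside 16.2% of all genes. Over all genes, 9.39% were called higher and 6.83% lower. The members' median was 0.51 and the median of all genes 0.03, and 9 members were higher by at least 2-fold, against 6.6% of all genes. The count was 10 without PASMC replicate 1 (beside 11.7% of all genes), 11 without PASMC replicate 2 (11.2%) and 11 without any single total_SMC replicate (10.4%). Without BSMC replicate 2 it was 23, with 21 higher and 2 lower, beside 21.0% of all genes. On implied reads without scaling, 14 members were called higher and 0 lower, the calls of Npnt, Enpp2, Has2, Medag and Pi16 being lost (adjusted p = 0.0672 to 0.168). Those of Serpinf1, Pcolce, Adh1 and Cygb ended under 1 or more of the other scalings (adjusted p = 0.0505 to 0.0836).

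In total_SMC against BSMC, 20 members were higher and 1, again Ebf1, was lower, so 61.8% of members were called, beside 41.9% of all genes. Of all genes, 23.7% were called higher here and 18.2% lower. The median of the members was 0.91 and that of all genes 0.05, and 16 members were higher by at least 2-fold, against 14.9% of all genes. The count stayed between 21 and 23 with any 1 library left out, beside 27.5% to 52.8% of all genes. It was 23 without BSMC replicate 2, with 21 higher and 2 lower, beside 52.8% of all genes. Scaling each library to the same total gave 19 higher and 4 lower, quantile normalization gave 19 and 5, and implied reads without scaling gave 23 and 0. Between them these scalings added lower calls of Enpp2, Ogn, Gsn and Sod3 (adjusted p = 0.00439 to 0.0365) and higher calls of Dcn, Pcolce2 and Tcf21 (adjusted p = 0.0138 to 0.0369). The call of Pcolce ended with equal totals, quantile normalization and cyclic loess (adjusted p = 0.0734 to 0.077), and that of Ebf1 on implied reads. The 3 comparisons share their groups, so their calls are not independent of each other.

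**Figure D2:**
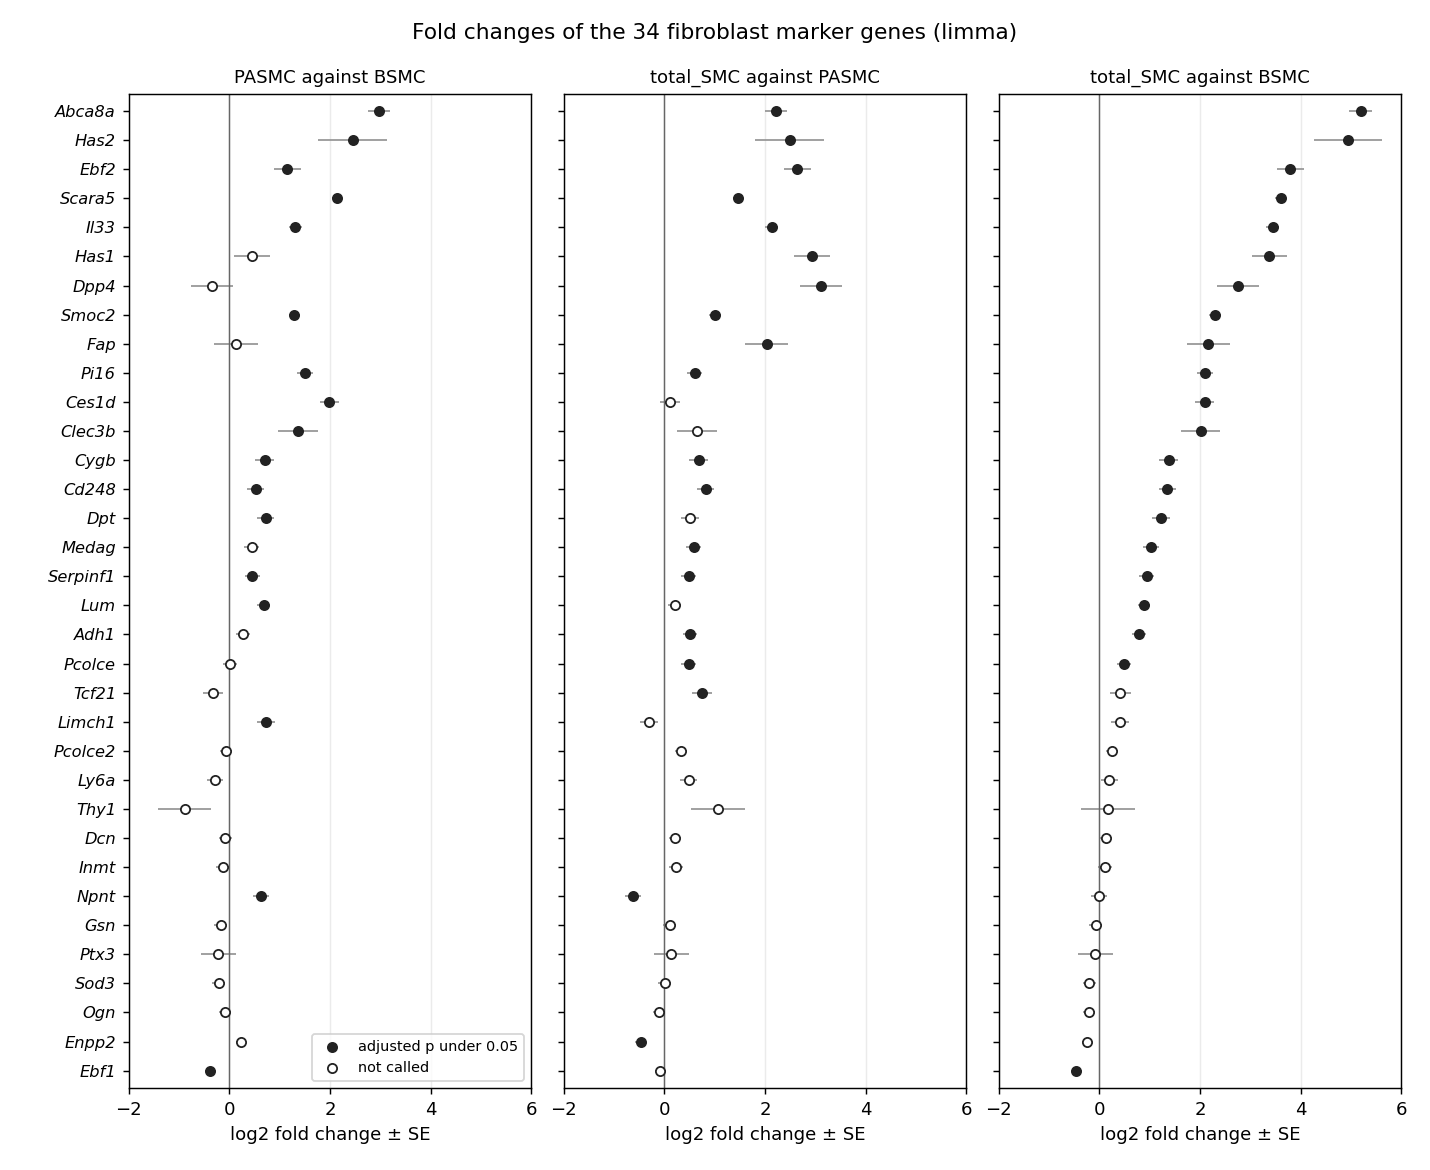
Log2 fold change ± SE of each of the 34 genes in 3 panels, 1 per comparison (limma, n = 3 per group), with filled points at an adjusted p under 0.05. The rows are sorted by total_SMC against BSMC, which runs from Abca8a at 5.19 to Ebf1 at -0.46.

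Among the 7 cell surface proteins and receptors, 5 were higher in total_SMC than in PASMC and 5 higher than in BSMC, and 3 were higher in PASMC than in BSMC. None was lower. Over all genes, 16.2%, 41.9% and 22.1% were called in these comparisons. With BSMC replicate 2 left out, 6 were higher in total_SMC than in PASMC (beside 21.0% of all genes called), and in PASMC against BSMC 2 were higher and 1 lower (41.7%). Scara5, a scavenger receptor that takes up ferritin (ENSMUSG00000022032, mm39 chromosome 14, 65903852 to 66002275), had 5354, 5661 and 6450 normalized counts in total_SMC, 2061, 2086 and 2171 in PASMC and 477, 484 and 473 in BSMC. No library of 1 group came near another group and the BSMC libraries were nearly equal. The log2 fold changes were 2.14 in PASMC against BSMC (SE 0.11, adjusted p = 3.64e-07), 1.46 in total_SMC against PASMC (adjusted p = 9.78e-06) and 3.60 in total_SMC against BSMC (adjusted p = 9.26e-09). Pi16, a peptidase inhibitor that marks progenitor-like fibroblasts of the adventitia (chromosome 17, 29536654 to 29549567), had 3240, 3053 and 3517 in total_SMC, 2249, 1810 and 2454 in PASMC and 620, 885 and 805 in BSMC. The step between PASMC and BSMC was the larger for this gene, at 1.5 (SE 0.16, adjusted p = 5.78e-05), beside 0.60 in total_SMC against PASMC (SE 0.16, adjusted p = 0.021). The smaller of these calls was lost without PASMC replicate 1 or 2 or total_SMC replicate 1 or 3 (adjusted p = 0.0522 to 0.104).

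Dpp4 and Fap are related serine proteases of the cell surface whose genes lie near each other on mm39 chromosome 2, at 62160417 to 62242575 and 62331287 to 62404419. Dpp4 had 591, 716 and 614 normalized counts in total_SMC, 112, 87 and 40 in PASMC and 112, 147 and 50 in BSMC. Only the total_SMC libraries stood apart, by 3.11 against PASMC (SE 0.42, adjusted p = 0.000421) and 2.75 against BSMC (adjusted p = 0.000392). Fap, fibroblast activation protein, had 112, 226 and 179 in total_SMC, 51, 34 and 36 in PASMC and 20, 67 and 35 in BSMC. Its total_SMC libraries lay above all others as well, with 2.03 against PASMC (SE 0.43, adjusted p = 0.00683) and 2.16 against BSMC (adjusted p = 0.0023). PASMC and BSMC overlapped for both genes, at -0.36 (adjusted p = 0.548) for Dpp4 and 0.13 (adjusted p = 0.842) for Fap.

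Cd248, the mesenchymal surface protein endosialin (chromosome 19, 5118106 to 5120710), averaged 4196 ± 249 in total_SMC, 2378 ± 277 in PASMC and 1686 ± 462 in BSMC. It was higher in total_SMC than in either, by 0.82 (adjusted p = 0.00543) and 1.35 (adjusted p = 0.000107). Between PASMC and BSMC the libraries overlapped, since PASMC replicate 2 had 2148 and BSMC replicate 3 reached 2214, and the call of 0.52 (adjusted p = 0.0449) was lost on leaving out any 1 library except BSMC replicate 3 (adjusted p = 0.0629 to 0.158). Ly6a, the Sca-1 antigen of mouse mesenchymal progenitors, was not called: it had 1356, 1351 and 1510 in total_SMC, 957, 898 and 1181 in PASMC and 1361, 957 and 1411 in BSMC. Without BSMC replicate 2 it was called lower in PASMC than in BSMC (adjusted p = 0.0172). In total_SMC against PASMC it was called higher without BSMC replicate 2 (adjusted p = 0.0142) or BSMC replicate 3 (adjusted p = 0.0459). Reads of Ly6a can be shared with near-identical Ly6 genes. Thy1, a glycoprotein used to sort fibroblasts, was near the lower end of the table, at 23, 41 and 21 in total_SMC, 10, 10 and 19 in PASMC and 26, 12 and 43 in BSMC, and no difference was detectable at these low values.

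Promoter sequence is shown for 3 members that were higher in total_SMC than in BSMC and that differ in which motif they hold. Each is the 250 bases before a RefSeq gene start (GRCm38.p6, not the build of the expression table), on the minus strand, written 5′ to 3′, with the motif in capitals. Dpp4 (chr2:62412232-62412481) holds the palindrome of early B cell factors (TCCC and GGGA with any 2 bases between) 115 bases before the start, Has1 (chr17:17855189-17855438) holds the E-box CAGCTG of basic helix-loop-helix factors 242 bases before it, and Abca8a (chr11:110095938-110096187) holds neither.
Dpp4: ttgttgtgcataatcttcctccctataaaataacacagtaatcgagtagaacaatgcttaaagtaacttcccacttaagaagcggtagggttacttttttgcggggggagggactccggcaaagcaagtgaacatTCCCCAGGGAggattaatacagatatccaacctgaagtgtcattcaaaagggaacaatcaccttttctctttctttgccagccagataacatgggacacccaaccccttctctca
Has1: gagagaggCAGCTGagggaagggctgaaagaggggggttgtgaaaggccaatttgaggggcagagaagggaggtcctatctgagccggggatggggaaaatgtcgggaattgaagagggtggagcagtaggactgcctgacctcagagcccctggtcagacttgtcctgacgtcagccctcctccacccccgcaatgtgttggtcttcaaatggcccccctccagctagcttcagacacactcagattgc
Abca8a: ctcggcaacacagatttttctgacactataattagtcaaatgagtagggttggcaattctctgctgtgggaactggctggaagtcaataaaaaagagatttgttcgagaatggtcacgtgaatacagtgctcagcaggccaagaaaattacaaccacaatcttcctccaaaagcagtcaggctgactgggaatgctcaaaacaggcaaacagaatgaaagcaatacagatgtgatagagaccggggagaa
Both motifs read the same on either strand and do not overlap each other. In windows of 300 bases, which reach past the start, the palindrome was in 0.904% of 32851 mouse promoters and in 1 of 27 member promoters. The E-box was in 16.3% of all promoters and in 11 of the 27, which belong to 10 of the 19 members that the promoter table held: Adh1, Dpt, Gsn, Has1, Il33, Inmt, Ogn, Pcolce, Pcolce2 and Pi16. That set includes genes called in every comparison, such as Il33, and genes called in none, such as Gsn and Ogn. These are matches of letters, and the data hold no measure of binding.

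The 3 transcription factors went separate ways. Ebf2, an early B cell factor known in mesenchymal and adipose precursors (chromosome 14, 67470741 to 67668367), had 413, 462 and 431 normalized counts in total_SMC, 94, 52 and 67 in PASMC and 29, 27 and 36 in BSMC. Each group was separate, with the wider gap below total_SMC: 2.64 in total_SMC against PASMC (SE 0.27, adjusted p = 6.23e-05), 3.79 in total_SMC against BSMC (adjusted p = 1.61e-06) and 1.15 in PASMC against BSMC (adjusted p = 0.0106). The last call was lost without PASMC replicate 1 (adjusted p = 0.0557). Its paralog Ebf1 (chromosome 11, 44508144 to 44898918), a factor of B cells as well as of stromal and mural cells, was the 1 member called lower against BSMC. It had 1525, 1369 and 1569 in total_SMC, 1554, 1630 and 1537 in PASMC and 2184, 2049 and 1918 in BSMC, and every BSMC library lay above the other groups. The fold was -0.46 in total_SMC against BSMC (SE 0.11, adjusted p = 0.00593) and -0.38 in PASMC against BSMC (adjusted p = 0.0292). The call between PASMC and BSMC was lost without BSMC replicate 1 or PASMC replicate 1, 2 or 3 (adjusted p = 0.0711 to 0.102). On implied reads without scaling neither was called, at -0.28 in total_SMC against BSMC (adjusted p = 0.219) and -0.15 in PASMC against BSMC (adjusted p = 0.553). Leukocyte markers, a list that also holds the B cell gene Cd79a, were highest in BSMC, as Ebf1 was. They summed to 412.9 ± 58.7 counts per M (CPM) in total_SMC, 311.4 ± 9.04 in PASMC and 1466 ± 296 in BSMC. In total_SMC against PASMC, 7 of the 10 were called higher and 1 lower, while Ebf1 was not called. The part of these markers in the Ebf1 difference was not tested.

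Tcf21, the helix-loop-helix factor of lung fibroblast progenitors and of alveolar fibroblasts (chromosome 10, 22693180 to 22696073), had 1383, 1474 and 1454 in total_SMC, 710, 861 and 1033 in PASMC and 1191, 767 and 1360 in BSMC. The total_SMC libraries were tight and lay above all others, with BSMC replicate 3 at 1360 the nearest of these. Against PASMC the fold was 0.74 (SE 0.20, adjusted p = 0.0275), a call lost without PASMC replicate 1 or 2 or any 1 total_SMC replicate (adjusted p = 0.073 to 0.115). Against BSMC it was 0.42 (adjusted p = 0.116) and passed without BSMC replicate 3 (adjusted p = 0.0395). Between PASMC and BSMC it was -0.33 (adjusted p = 0.25) and passed without BSMC replicate 2 (adjusted p = 0.0126). The antisense gene Gm10824 overlaps Tcf21 and averaged 6.0% of its value.

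The hyaluronan synthases make the long sugar polymer of loose matrix, and both were highest in total_SMC. Has1 (ENSMUSG00000003665, chromosome 17, 18063585 to 18075467) had 833, 332 and 506 in total_SMC, 64, 52 and 92 in PASMC and 66, 38 and 47 in BSMC. The total_SMC libraries varied more than 2-fold among themselves, yet the lowest of them was above every other library. Its fold was 2.93 against PASMC (SE 0.35, adjusted p = 0.000225) and 3.38 against BSMC (adjusted p = 3.31e-05), and PASMC and BSMC overlapped (0.45, adjusted p = 0.361). Has2 (ENSMUSG00000022367, chromosome 15, 56529023 to 56557935) had 232, 311 and 239 in total_SMC, 42, 46 and 48 in PASMC and 17, 16 and 1 in BSMC. All groups were separate, and BSMC replicate 3 was close to 0.

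The Has2 fold was 4.93 in total_SMC against BSMC (SE 0.68, adjusted p = 0.000205), 2.49 in total_SMC against PASMC (adjusted p = 0.0269) and 2.45 in PASMC against BSMC (adjusted p = 0.0257). With a BSMC library close to 0 the size of the fold depended on the settings, and it ran from 3.76 to 5.48 in total_SMC against BSMC and from 1.40 to 2.99 in PASMC against BSMC over the alternatives. Without BSMC replicate 3, the library close to 0, they were 3.89 in total_SMC against BSMC and 1.40 in PASMC against BSMC. The call between PASMC and BSMC was lost without PASMC replicate 1, 2 or 3 (adjusted p = 0.059 to 0.0725). The one between total_SMC and PASMC was lost without any 1 library of those groups (adjusted p = 0.0656 to 0.103). The antisense gene Has2os overlaps Has2 and averaged 32.4, or 30.7% of the Has2 mean of 105.8. The sources do not say that counting used strand, and without it reads of the pair cannot be told apart.

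Of the 6 matrix proteins that bind or process collagen, 3 were higher in total_SMC than in BSMC, 1 higher than in PASMC, and 2 higher in PASMC than in BSMC. Of all genes, 41.9%, 16.2% and 22.1% were called in these comparisons. Leaving out BSMC replicate 2 made the number higher in total_SMC than in PASMC 3, beside 21.0% of all genes called. Lumican (Lum), a small leucine-rich proteoglycan of collagen fibrils, had 2794, 2942 and 3157 in total_SMC, 2509, 2492 and 2707 in PASMC and 1889, 1559 and 1396 in BSMC. Its groups were in order but total_SMC and PASMC lay close, at 0.21 (adjusted p = 0.329), while PASMC was higher than BSMC by 0.68 (SE 0.12, adjusted p = 0.00257). Dermatopontin (Dpt), which binds decorin and collagen, had 2681, 2796 and 3104 in total_SMC, 2015, 1804 and 2227 in PASMC and 1465, 886 and 1396 in BSMC. It showed steps of similar size, 0.51 in total_SMC against PASMC (adjusted p = 0.0766) and 0.72 in PASMC against BSMC (SE 0.18, adjusted p = 0.0148). The first passed without BSMC replicate 2 (adjusted p = 0.00503), and the second was lost without PASMC replicate 1 or 3 (adjusted p = 0.0518 to 0.0536). In total_SMC against BSMC, Dpt was at 1.23 (adjusted p = 0.000283) and Lum at 0.89 (adjusted p = 0.000218).

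The procollagen C-proteinase enhancers, which speed the trimming of collagen precursors, were a pair of related genes with unlike calls. Pcolce had 2765, 2706 and 3113 in total_SMC, 2061, 1898 and 2180 in PASMC and 2079, 1637 and 2454 in BSMC. It was higher in total_SMC by 0.48 against PASMC (SE 0.14, adjusted p = 0.0401) and 0.49 against BSMC (adjusted p = 0.0178). These were weak calls: the one against PASMC was lost without any 1 PASMC or total_SMC library (adjusted p = 0.0712 to 0.159), and the one against BSMC without total_SMC replicate 3 (adjusted p = 0.0756). Pcolce2 averaged 3087 ± 199 in total_SMC, 2466 ± 93.1 in PASMC and 2600 ± 355 in BSMC, without a call (0.32 against PASMC, adjusted p = 0.0911), and passed against PASMC without BSMC replicate 2 (adjusted p = 0.0191). Decorin (Dcn), a proteoglycan that regulates fibril assembly, was at 3667 ± 297 in total_SMC, 3163 ± 203 in PASMC and 3368 ± 538 in BSMC. Osteoglycin (Ogn), another of that family, was at 4113 ± 550 in total_SMC, 4418 ± 221 in PASMC and 4712 ± 442 in BSMC. For both, the groups overlapped or differed by less than the fit could call, between -0.20 and 0.21 over the comparisons. Other scalings called Dcn higher (adjusted p = 0.0369) or Ogn lower (adjusted p = 0.0153 to 0.0267) in total_SMC than in BSMC.

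Of the 8 other secreted proteins, 3 were higher and 1 lower in total_SMC against PASMC, 4 higher in total_SMC than in BSMC and 4 higher in PASMC than in BSMC. Of all genes, 16.2%, 41.9% and 22.1% were called in these comparisons. Without BSMC replicate 2 the counts of the 8 were 4 and 1, 4 and 1, and 3 and 2. All genes called were then 21.0%, 52.8% and 41.7%. Il33 and Smoc2 had the clearest order. Il33, an alarmin cytokine held in the nucleus of stromal cells until it is released by damage (ENSMUSG00000024810, chromosome 19, 29902514 to 29938118), had 3496, 2900 and 3253 in total_SMC, 727, 748 and 716 in PASMC and 329, 289 and 267 in BSMC. The PASMC libraries were nearly equal and lay far from both other groups. The fold was 2.13 in total_SMC against PASMC (SE 0.13, adjusted p = 3.66e-06), 3.44 in total_SMC against BSMC (adjusted p = 5.41e-08) and 1.31 in PASMC against BSMC (adjusted p = 4.45e-05). Smoc2, a matricellular protein of the SPARC family (chromosome 17, 14499768 to 14625052), had 4202, 3864 and 4458 in total_SMC, 2156, 2009 and 2047 in PASMC and 750, 876 and 916 in BSMC. Its steps were nearly even, 1.01 in total_SMC against PASMC (SE 0.11, adjusted p = 0.000133) and 1.29 in PASMC against BSMC (adjusted p = 1.94e-05), and both genes kept all 3 calls in each of the 21 alternatives tried.

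Clec3b, the plasminogen-binding protein tetranectin, had 1735, 1699 and 1919 in total_SMC, 1086, 985 and 1379 in PASMC and 567, 190 and 796 in BSMC. The BSMC libraries varied widely among themselves, and the fold between PASMC and BSMC was 1.37 with an SE of 0.39 (adjusted p = 0.0298). That call was lost without PASMC replicate 1, 2 or 3 (adjusted p = 0.0604 to 0.0795). Against BSMC, total_SMC was higher by 2.01 (adjusted p = 0.00204), and against PASMC its 0.65 (adjusted p = 0.335) passed without BSMC replicate 2 (adjusted p = 0.0126). The size of the folds rested on that library: without it they were 1.41 in total_SMC against BSMC (adjusted p = 9.9e-05) and 0.76 in PASMC against BSMC (adjusted p = 0.0062). Serpinf1, the anti-angiogenic serpin PEDF, averaged 2645 ± 217 in total_SMC, 1896 ± 223 in PASMC and 1389 ± 242 in BSMC, in full order of its libraries. It was higher in total_SMC than in BSMC by 0.94 (adjusted p = 0.000484). Its calls in total_SMC against PASMC (0.48, adjusted p = 0.0448) and PASMC against BSMC (0.46, adjusted p = 0.0453) were at the threshold. They were lost without PASMC replicate 1 or 2 or any total_SMC replicate in the one (adjusted p = 0.0876 to 0.179), and without any 1 library except BSMC replicate 3 in the other (adjusted p = 0.0619 to 0.136). The fold in PASMC against BSMC was 0.31 without BSMC replicate 2.

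Enpp2, the enzyme autotaxin that makes lysophosphatidic acid, ran against most members. It had 3636, 3630 and 4316 in total_SMC, 5567, 5214 and 5252 in PASMC and 4819, 4686 and 4148 in BSMC, with every PASMC library on top. Total_SMC was lower than PASMC by -0.47 (SE 0.10, adjusted p = 0.00802), a call kept with any 1 library left out, and its -0.24 against BSMC (adjusted p = 0.0814) passed without BSMC replicate 3 or total_SMC replicate 3 (adjusted p = 0.0451 to 0.0457). Gelsolin (Gsn), an actin-severing protein with a secreted form, averaged 5509 ± 461 in total_SMC, 5124 ± 296 in PASMC and 5833 ± 974 in BSMC. Extracellular superoxide dismutase (Sod3) was at 3303 ± 264 in total_SMC, 3274 ± 166 in PASMC and 3822 ± 647 in BSMC. Neither was called at the deposited scaling with all libraries. With quantile normalization Gsn was lower in PASMC than in BSMC (adjusted p = 0.0401) and in total_SMC than in BSMC (adjusted p = 0.0365). Sod3 was lower in total_SMC than in BSMC with equal totals (adjusted p = 0.0352) and quantile normalization (adjusted p = 0.0184). Without BSMC replicate 2 both were lower in PASMC than in BSMC (adjusted p = 0.037 for Gsn and 0.024 for Sod3) and Sod3 was lower in total_SMC than in BSMC (adjusted p = 0.0221). The pentraxin gene Ptx3, an innate immune protein induced in inflamed stroma, had 129, 87 and 69 in total_SMC, 94, 80 and 77 in PASMC and 87, 66 and 159 in BSMC, with wide overlap.

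All 4 members for metabolism and transport were higher in total_SMC than in PASMC and than in BSMC, and 2 of them, Abca8a and Cygb, were higher in PASMC than in BSMC. Over all genes, 16.2%, 41.9% and 22.1% were called in these comparisons. Without BSMC replicate 2 Medag made the number higher in PASMC than in BSMC 3, beside 41.7% of all genes called. Abca8a, a lipid transporter of the ATP-binding cassette family (ENSMUSG00000041828, chromosome 11, 109916460 to 109986804), had 5733, 6153 and 7179 in total_SMC, 1451, 1230 and 1397 in PASMC and 145, 265 and 133 in BSMC. Its groups were far apart, with 5.19 in total_SMC against BSMC (SE 0.22, adjusted p = 8.49e-08), 2.22 in total_SMC against PASMC (adjusted p = 6.23e-05) and 2.97 in PASMC against BSMC (adjusted p = 6.46e-06). Reads may be shared with its neighbouring paralogs of the Abca8 cluster, so the value of this one copy is uncertain. Cytoglobin (Cygb), an oxygen-binding haem protein of fibroblasts, had 3043, 2938 and 3341 in total_SMC, 1701, 1784 and 2383 in PASMC and 1338, 867 and 1456 in BSMC. It was higher by 1.38 in total_SMC against BSMC (adjusted p = 0.000212), 0.68 in total_SMC against PASMC (adjusted p = 0.0302) and 0.70 in PASMC against BSMC (adjusted p = 0.0241). The second was lost without PASMC replicate 1 or 2 or any total_SMC replicate (adjusted p = 0.0726 to 0.117), and the third without PASMC replicate 2 or 3 (adjusted p = 0.0505 to 0.0795).

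Adh1, an alcohol dehydrogenase that also oxidises retinol, averaged 2054 ± 158 in total_SMC, 1442 ± 163 in PASMC and 1204 ± 178 in BSMC. Its total_SMC libraries lay above all others and PASMC and BSMC overlapped, with PASMC replicate 1 at 1320 and BSMC replicate 1 at 1335. The fold was 0.51 against PASMC (SE 0.14, adjusted p = 0.0271) and 0.78 against BSMC (adjusted p = 0.00121). Medag, a gene first described in adipocyte formation, had 664, 743 and 767 in total_SMC, 503, 494 and 452 in PASMC and 380, 388 and 301 in BSMC. The groups were in full order, with 0.58 in total_SMC against PASMC (adjusted p = 0.0216), 1.03 in total_SMC against BSMC (adjusted p = 0.000332) and 0.45 in PASMC against BSMC (adjusted p = 0.056), which passed without BSMC replicate 2 (adjusted p = 0.0201). The calls against PASMC were lost without PASMC replicate 1 or 2 or any total_SMC replicate for Adh1 (adjusted p = 0.056 to 0.125), and without any PASMC replicate or total_SMC replicate 2 or 3 for Medag (adjusted p = 0.0553 to 0.107).

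The alveolar fibroblast markers, with Tcf21 above, did not move as one. Ces1d, a carboxylesterase of lipid metabolism (chromosome 8, 93892696 to 93924466), had 733, 840 and 825 in total_SMC, 908, 654 and 689 in PASMC and 222, 206 and 142 in BSMC. Total_SMC and PASMC overlapped (0.10, adjusted p = 0.812), and BSMC was below both, by 2.09 in total_SMC against BSMC (SE 0.20, adjusted p = 1.49e-05) and 1.99 in PASMC against BSMC (adjusted p = 4.14e-05). Reads of Ces1d can be shared with related genes of the carboxylesterase cluster. Nephronectin (Npnt), an integrin ligand of the alveolar matrix (chromosome 3, 132587506 to 132656052), had 3630, 3619 and 4235 in total_SMC, 6316, 5644 and 5776 in PASMC and 3211, 5116 and 3401 in BSMC. PASMC was on top, with -0.63 in total_SMC against PASMC (SE 0.16, adjusted p = 0.0173) and 0.63 in PASMC against BSMC (adjusted p = 0.0162). The first call was lost without PASMC replicate 1 or total_SMC replicate 1 or 2 (adjusted p = 0.0699 to 0.0736), and the second without BSMC replicate 1 or PASMC replicate 1 (adjusted p = 0.0701 to 0.071).

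Limch1, a regulator of non-muscle myosin, had 2446, 3010 and 3544 in total_SMC, 4290, 3572 and 3246 in PASMC and 2046, 2868 and 1868 in BSMC. The PASMC libraries lay above those of BSMC and overlapped those of total_SMC. It was higher in PASMC than in BSMC by 0.73 (SE 0.18, adjusted p = 0.0158), a call lost without BSMC replicate 1 or PASMC replicate 1 (adjusted p = 0.0638 to 0.0771). In total_SMC against BSMC it was at 0.42 (adjusted p = 0.0836) and passed without BSMC replicate 2 or total_SMC replicate 1 (adjusted p = 0.009 to 0.0495). Inmt, a methyltransferase abundant in lung, averaged 2083 ± 159 in total_SMC, 1769 ± 127 in PASMC and 1953 ± 355 in BSMC and was not called, with folds between -0.13 and 0.24. Counted together, the 5 alveolar markers gave 3 higher and 0 lower in PASMC against BSMC, 1 and 1 in total_SMC against PASMC, and 1 and 0 in total_SMC against BSMC. The 29 adventitial markers gave 13 higher and 1 lower in PASMC against BSMC, 16 and 1 in total_SMC against PASMC, and 19 and 1 in total_SMC against BSMC. As shares called, the alveolar markers had 60.0%, 40.0% and 20.0% and the adventitial markers 48.3%, 58.6% and 69.0%, beside 22.1%, 16.2% and 41.9% of all genes. When BSMC replicate 2 was left out, the alveolar markers gave 3 and 1, 1 and 1, and 2 and 0 in these comparisons, and the adventitial markers 12 and 4, 20 and 1, and 19 and 2. All genes called were then 41.7%, 21.0% and 52.8%. The difference between these lists was not tested.

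As shares of the whole library, the 34 members summed to 9409 ± 445 CPM in total_SMC, 7370 ± 402 in PASMC and 6356 ± 550 in BSMC, and the groups did not overlap (9008 to 9888 in total_SMC, 6993 to 7793 in PASMC and 5722 to 6710 in BSMC). The adventitial markers took 7888 to 8579 CPM in total_SMC, 5560 to 6316 in PASMC and 4460 to 5604 in BSMC, so that PASMC and BSMC touched. The summed alveolar markers had another order, with 1222 ± 96.1 CPM in total_SMC, 1493 ± 68.9 in PASMC and 1153 ± 94.9 in BSMC. Singly, Npnt and Limch1 had their highest mean in PASMC, and Tcf21, Inmt and Ces1d in total_SMC. By role, surface proteins were at 1704 ± 70.2 CPM in total_SMC, 896.5 ± 95.3 in PASMC and 532.6 ± 72.3 in BSMC. Collagen-binding matrix proteins were at 2145 ± 134 CPM in total_SMC, 1916 ± 120 in PASMC and 1915 ± 283 in BSMC, with overlap between all of them.

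**Figure D3:**
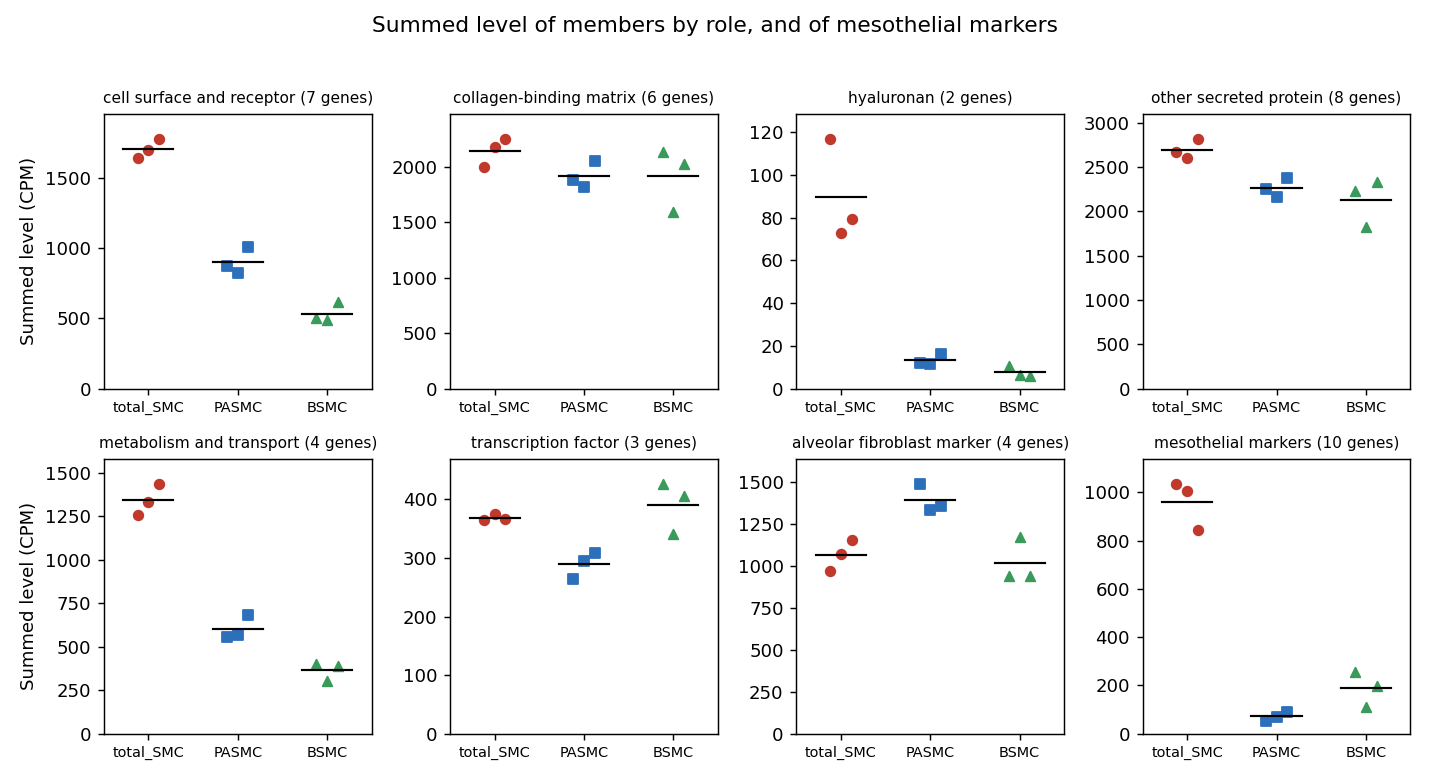
Summed level in CPM of the members of each role and of 10 mesothelial markers, 1 point per library with the group mean as a bar, for total_SMC, PASMC and BSMC. Surface, hyaluronan and metabolism members and the mesothelial markers are highest in total_SMC, while matrix members overlap between groups. The alveolar panel holds Npnt, Limch1, Inmt and Ces1d, while Tcf21 is counted with the transcription factors, and the sum of that panel is highest in PASMC.

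Per kb of exon, which takes gene length into account, the highest members in total_SMC were Clec3b at 1800 normalized counts per kb, Gsn at 1750, Dpt at 1660, Cd248 at 1610 and Ogn at 1600. All of these averaged over 1 implied read per base of exon. Whether values are limited at that density was not tested, so their order as genes is uncertain. Thy1 at 9.46 and Fap at 30.4 per kb were the least abundant there. The order changed between groups: in BSMC, Gsn at 1850 and Ogn at 1840 per kb led, Clec3b was at 522, and Abca8a was at 28.9, beside 1010 in total_SMC and 217 in PASMC. Il33 was at 1110 per kb in total_SMC, 253 in PASMC and 102 in BSMC, and Scara5 at 955 per kb in total_SMC, 346 in PASMC and 78.5 in BSMC.

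The split of calls by read density differed between the comparisons. The 8 members at or over 1 implied read per base of exon, Ly6a, Clec3b, Gsn, Lum, Ogn, Dpt, Inmt and Cd248, include 4 of the 9 genes called nowhere, and in total_SMC against PASMC 1 of them was called, against 18 of the 26 members under that density. Among all genes in that comparison, 11.9% of the 235 that dense were called and 16.4% of the 15132 less dense, so the 1 of 8 dense members was near its background. In PASMC against BSMC 4 of 8 and 13 of 26 members were called, beside 10.2% of dense and 22.4% of less dense genes. In total_SMC against BSMC it was 4 of 8 and 17 of 26 members, beside 35.3% and 42.2% of genes. The median absolute log2 fold change there was 0.25 over dense and 0.59 over less dense genes. Leaving out BSMC replicate 2, the dense members called were 4 in total_SMC against PASMC (16.2% of dense genes), 5 in PASMC against BSMC (61.3%) and 4 in total_SMC against BSMC (63.8%). Whether density limits the folds of these members was not tested, and a missing call does not show equal levels.

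**Figure D4:**
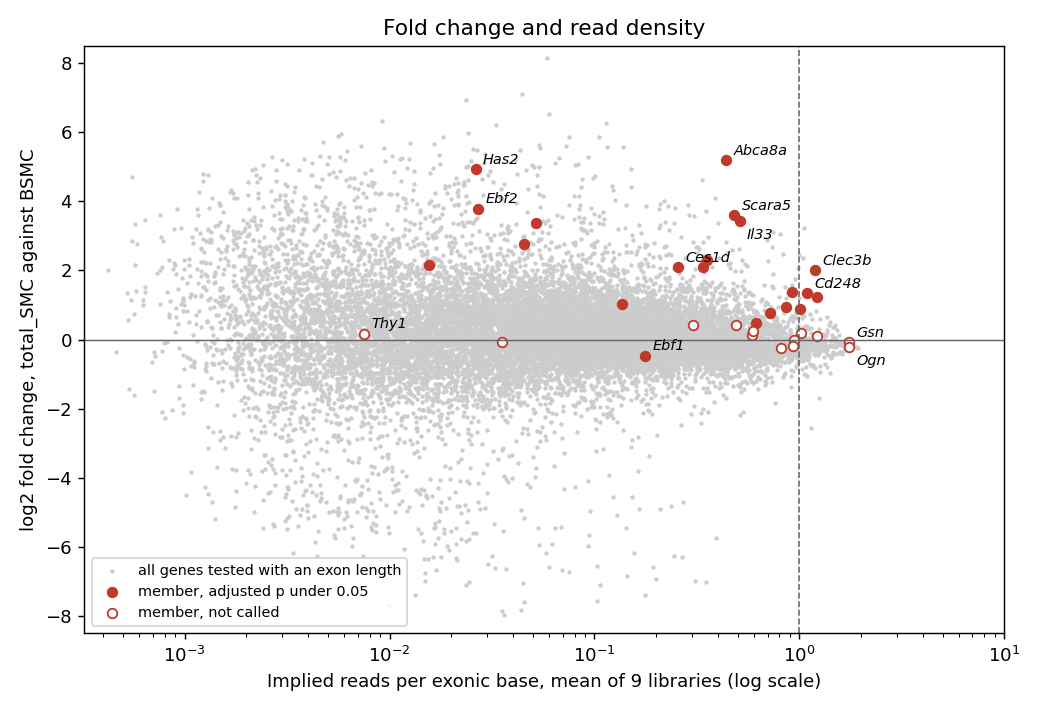
Log2 fold change in total_SMC against BSMC (vertical) by implied reads per exonic base, mean of 9 libraries (horizontal, log axis), for all genes tested with an exon length (grey) and the members (red, filled at an adjusted p under 0.05). Abca8a, Scara5 and Il33 lie left of the dashed line at 1 read per base and Gsn and Ogn right of it near 0.

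Markers of other cells also differed between the groups, not always in the order of the members. Their counts stand beside 22.1% of all genes called in PASMC against BSMC, 16.2% in total_SMC against PASMC and 41.9% in total_SMC against BSMC. Without BSMC replicate 2 these shares were 41.7%, 21.0% and 52.8%. Mesothelial markers summed to 961.9 ± 103 CPM in total_SMC (844.2 to 1036), 72.12 ± 18.9 in PASMC (54.05 to 91.8) and 189.1 ± 72.0 in BSMC (112.6 to 255.5). All 10 were called higher in total_SMC than in PASMC and 9 of 10 higher than in BSMC, and Muc16 and Bnc1 were at 0 in every PASMC library. In PASMC against BSMC they went the other way from the members, with 0 higher and 7 lower. With BSMC replicate 2 left out, 8 were higher in total_SMC than in BSMC, and 8 were lower in PASMC than in BSMC. Endothelial markers summed to 1842 ± 207 CPM in total_SMC (1697 to 2079), 1204 ± 128 in PASMC (1064 to 1316) and 1504 ± 104 in BSMC (1387 to 1586). Of 12, 7 were higher and 0 lower in total_SMC against PASMC, 3 and 1 in total_SMC against BSMC, and 0 and 5 in PASMC against BSMC. The sum of alveolar type 2 epithelial markers had its peak in PASMC, with 236.3 ± 6.48 CPM in total_SMC (232.0 to 243.7), 814.9 ± 41.7 in PASMC (790.2 to 863.0) and 505.0 ± 107 in BSMC (383.2 to 582.7). The alveolar fibroblast sum peaked there too, but of its genes only Npnt and Limch1 did. Of 8, 6 were higher and 0 lower in PASMC against BSMC, 0 and 7 in total_SMC against PASMC, and 1 and 7 in total_SMC against BSMC. Alveolar type 1 markers summed to 229.6 to 382.4 CPM in total_SMC, 135.7 to 154.2 in PASMC and 338.1 to 357.9 in BSMC, and airway epithelial markers to 338.7 ± 90.0 in total_SMC, 410.2 ± 81.3 in PASMC and 298.3 ± 58.1 in BSMC. Leukocyte markers were 10 of 10 lower in total_SMC than in BSMC and 9 of 10 lower in PASMC than in BSMC, with library sums of 377.2 to 480.7 CPM in total_SMC, 304.6 to 321.7 in PASMC and 1124 to 1651 in BSMC. Smooth muscle markers took 3554 ± 269 CPM in total_SMC (3367 to 3863), 4604 ± 285 in PASMC (4276 to 4799) and 4874 ± 412 in BSMC (4502 to 5317). Total_SMC was lowest, while PASMC and BSMC overlapped. Of 10, 1 was higher and 0 lower in PASMC against BSMC, 0 and 3 in total_SMC against PASMC, and 0 and 6 in total_SMC against BSMC. Without BSMC replicate 2 these counts were 1 and 6, 0 and 3, and 0 and 8. Vascular muscle and pericyte markers took 2154 ± 46.4 CPM in total_SMC, 3076 ± 79.0 in PASMC and 2967 ± 280 in BSMC. The part of these markers in the members' differences was not tested.

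A further 43 fibroblast genes outside the 34 gave like counts. In PASMC against BSMC 17 were higher and 0 lower (39.5%, median 0.40), in total_SMC against PASMC 19 and 4 (53.5%, median 0.55), and in total_SMC against BSMC 23 and 4 (62.8%, median 1.13). Beside these, 22.1%, 16.2% and 41.9% of all genes were called. Without BSMC replicate 2 the counts were 20 and 8, 22 and 4, and 24 and 6, beside 41.7%, 21.0% and 52.8% of all genes. Scaling changed the split in PASMC against BSMC to 17 and 3 with equal totals or cyclic loess and 17 and 4 with quantile normalization. In total_SMC against BSMC, implied reads without scaling gave 26 and 1. Pdgfra, the platelet-derived growth factor receptor that defines fibroblasts, had 7107, 6749 and 8301 in total_SMC, 2061, 1854 and 1707 in PASMC and 247, 520 and 207 in BSMC, the order of the 13 members above, with folds of 4.62 in total_SMC against BSMC (SE 0.27, adjusted p = 4.83e-07), 1.98 in total_SMC against PASMC (adjusted p = 0.000434) and 2.64 in PASMC against BSMC (adjusted p = 4.8e-05). Slit2, an axon guidance ligand, averaged 914.7 ± 141 in total_SMC, 348 ± 89.6 in PASMC and 67.0 ± 21.7 in BSMC and was called higher in each comparison. The Wnt modulator Sfrp2 ran the other way, at 1190 ± 112 in total_SMC, 1909 ± 97.7 in PASMC and 2326 ± 143 in BSMC, and was lower in total_SMC than in PASMC by -0.68 (adjusted p = 0.00147) and than in BSMC by -0.97 (adjusted p = 6.71e-05).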

How the data were processed

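Gene expression was measured in 9 SMART-Seq v4 RNA libraries (3 groups of 3), each made from at most 10 ng of total RNA. Per the submitters' processing notes, the tools were DESeq2 1.36.0, featureCounts 2.0.4, STAR 2.7.11a, Trimmomatic 0.39 and Picard 3.1.1, the build was mm39, and the role of each is not given. The deposited values, recorded with the unit score, are normalized read counts per gene that the authors rounded to whole numbers. This was read from the values: their spacing gave a factor per library, by which values were divided to give implied reads. Precision is given as the spread between libraries, without intervals for single values. Replicates were no copies of each other (chi-square per gene 6.52 to 32.84).

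Genes had to reach 10 in 3 or more libraries. Log2(value + 1) was fitted for the 3 groups together with limma 3.58.1 in R 4.3.3 (lmFit; eBayes using its trend and robust options), with Benjamini-Hochberg adjustment over all genes and a threshold of 0.05, two-sided. Log2 fold changes are on that scale, which understates changes of low genes. Plans had allowed for raw counts; the rounded normalized values took this test. No pairing by replicate number was seen: of 9 same-number pairs, correlations of deviations ran from -0.124 to 0.136 and 1 was over 0.1. With 3 libraries per group these correlations cannot exclude a shared origin.

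The members and all lists were chosen with earlier results of these data known. All 34 members are named. Of the 43 further fibroblast genes, the rule names up to 3 per direction and comparison, by called change, with a mean of at least 100, and of marker lists the 2 of highest mean; Dpp4, Has1 and Abca8a promoters and Muc16 and Bnc1 were chosen after values were seen, and the text names a part of the rest. Exon lengths came from GENCODE vM21 for 96.7% of genes, and coordinates are those of the table. Promoters are RefSeq sequence on GRCm38.p6 for 19 of the 34 members; 300 bases were searched and 250 printed. Protein sequences were not used here. Python 3.11.15 with pandas 2.3.3 and matplotlib 3.10.9 served for summaries and figures.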

Additional observations from a re-analysis of the deposited data

How the results depend on the processing

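Each count was recomputed under 21 alternatives: the replicate block, pseudocounts of 0.5 and 10, no filter or one of 50, 4 scalings, 3 other estimates of spread and each library left out. No member that was called changed sign in any of them, and Thy1 was not tested at the filter of 50. In PASMC against BSMC the number of members called was 17 (22.1% of all genes). It was 10 with only the 2 groups in the fit (12.3%) and 8 with eBayes without trend and robust options (15.4%). With 1 library left out it was 8 to 20 (11% to 41.7%). In total_SMC against PASMC it was 19 (16.2% of all genes), 10 with eBayes without those options (14.6%) and 10 to 23 with 1 library left out (10.4% to 21.0%). With only the 2 groups it was 23 (27.8%), and with a weight per library 26 (32.5%). In total_SMC against BSMC it was 21 (41.9%), and 21 to 23 with 1 library left out (27.5% to 52.8%). There it was 20 with eBayes without those options (37.1%) and 24 with quantile normalization (46.4%). The further fibroblast genes called ranged with 1 library left out from 14 to 28, 19 to 26 and 25 to 30 in the comparisons in this order, the 28 being without BSMC replicate 2. With the replicate block, 17, 21 and 21 members and 18, 23 and 27 further genes were called, beside 21.0%, 14.6% and 40.6% of all genes. The labels do not say whether libraries of 1 number share an origin. The block ended no member's call and added 2 in total_SMC against PASMC. Calls held in every alternative for 7 of 17, 9 of 19 and 19 of 21 members. The cause of the changes was not tested. Scaling moved the median of all genes in total_SMC against BSMC to -0.11 with equal totals and to 0.22 on implied reads, and in PASMC against BSMC to 0.27 on implied reads; over all genes, equal totals gave 1817 higher and 2106 lower in PASMC against BSMC, beside 2062 and 1389, and 3042 and 4065 in total_SMC against BSMC, beside 3706 and 2847. Limits: members with low values, such as Thy1, Ptx3 and the BSMC values of Has2, are counted from few reads; whether folds of genes over 1 implied read per base are limited was not tested; and 3 libraries per group from different mouse lines cannot tell population from line or sort.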
